A study of Penicillium oxalicum with 12 samples.

Results

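The genes described here are 112 of the 9979 genes in a transcriptome table of the filamentous fungus Penicillium oxalicum. They are the genes with a large increase in the strain gAraRC and a bounded difference from wild type in the strains gCXC and gXlnRC. The members were chosen on the values themselves. A gene had to reach an FPKM (fragments scaled to gene length and library depth) of at least 1 in at least 3 of the 12 libraries. Its mean log2(FPKM + 1) over the 3 gAraRC libraries had to lie at least 1.5 above the mean of the 3 wild-type libraries, and its means in gCXC and gXlnRC had to lie less than 0.8 from wild type in either direction. A list of 13 tags was left out by the rule, and 0 of them met these thresholds. Of the 9125 genes that passed the FPKM filter, 289 reached the 1.5 threshold in gAraRC, and 112 of these also met both bounds.

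Each group holds 3 libraries of polyadenylated RNA from whole mycelia, described by the submitters as biological replicates. WT is the wild-type strain 114-2. gCXC expresses a chimeric transcription factor called CXC, gXlnRC expresses XlnR with the substitution A871V, and gAraRC expresses AraR with the substitution A731V. All 4 strains had 24 h of preculture in Vogel's medium, a mineral medium, with 2% glucose and then 4 h in the same medium without a carbon source, at 30 °C and 200 rpm. The promoter that drives each engineered factor, its insertion site, whether the native copy remained and the number of transformants per strain are not stated in the labels. Because RNA came from whole mycelia, more transcript per cell and more cells of a kind that uses a gene cannot be told apart.

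AraR and XlnR are zinc-finger transcription factors of filamentous fungi. In Aspergillus species, AraR is known for activating genes of L-arabinose release and breakdown when arabinose or arabitol is present, and XlnR for activating xylanase genes and genes of xylose use, with an overlap between their targets in pentose metabolism. Variants of such factors with a single changed residue near the C-terminus can be active without the inducing sugar. The table gives PDE locus tags without gene names. The reference gene table at hand describes another assembly, and 0 of the 9979 tags matched it. The genes are therefore described by tag, level, gene length and neighbourhood, with no function, position or sequence assigned.

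The depth was recovered from the steps between FPKM values and ranged from 14549534 to 20092362 reads counted in genes per library. No library was left out. Over all 9125 tested genes the median log2 difference from WT was -0.34 in gAraRC, -0.0026 in gCXC and -0.10 in gXlnRC. The gAraRC value depends on scaling and was -0.19 in TPM, -0.029 with quantile normalization and -0.0085 with median-of-ratios scaling. The whole set of 112 had a median FPKM of 7.41 in WT, 6.36 in gCXC, 6.79 in gXlnRC and 33.7 in gAraRC. All tested genes had medians of 26.9, 26.5, 25.5 and 21.2 FPKM in the same order. By median, the set lay below the tested genes in 3 strains and above them in gAraRC, where the rule asked for an increase.

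The gAraRC increase of the members ran from 1.502 to 3.66 on the log2(FPKM + 1) scale, with a median of 1.89 and a median standard error of 0.15. As a ratio of mean FPKM, 75 members were at least 4-fold higher than in WT and 8 at least 10-fold, with a median ratio of 4.55. In the limma fit across all tested genes, 112 of 112 members were called higher in gAraRC than in WT (Benjamini-Hochberg adjusted p below 0.05), where 19.1% of all tested genes were called higher and 57.0% lower. The rule used this contrast, so the count describes the choice and is not a finding. For 111 members all 3 gAraRC libraries lay above all 9 other libraries, as they did for 11.6% of tested genes. This too follows largely from the rule, which sets gAraRC apart from the other means. The exception was PDE_00249, described below.

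**Figure D1:**
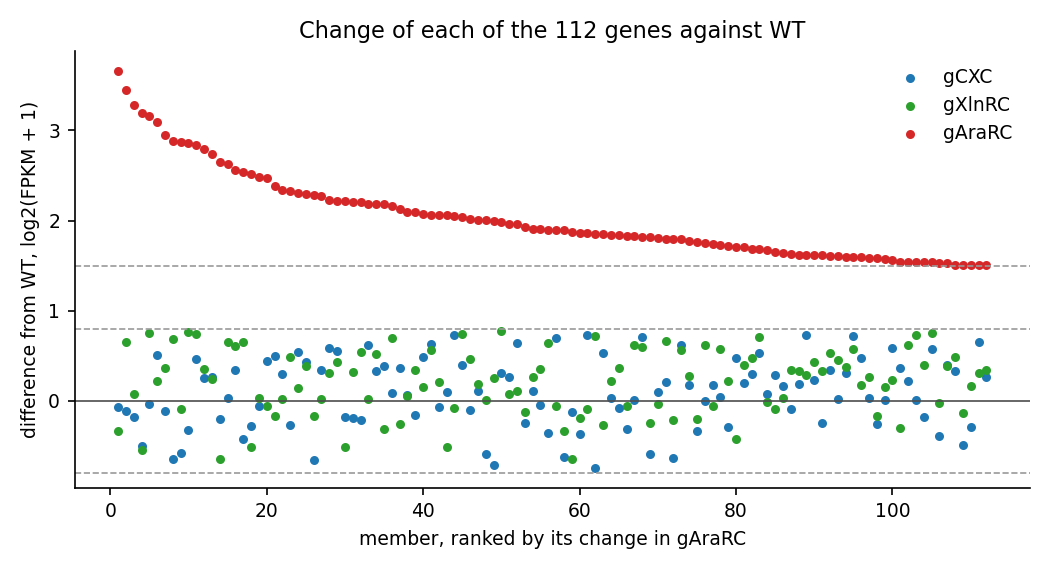
Difference from WT in mean log2(FPKM + 1) (vertical axis) for each of the 112 genes, ranked by their difference in gAraRC (horizontal axis), with 1 point per strain. Dashed lines mark the thresholds of 1.5, 0.8 and -0.8. The gAraRC points run from 3.66 down to 1.502, and the gCXC and gXlnRC points lie between the bounds by choice.

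PDE_07081 had the largest difference. Its WT libraries stood at 16.9, 15.9 and 17.6 FPKM, those of gCXC at 16.5, 16.3 and 15.03, those of gXlnRC at 13.1, 12.2 and 14.3, and those of gAraRC at 200.1, 245 and 230 FPKM. The gAraRC libraries were more than 10 times higher than any other, and the gXlnRC libraries were the lowest. The mean ratio of gAraRC to WT was 13.4, and the log2 difference was 3.66 ± 0.08 (SE).

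PDE_06411 read 28.3, 25.1 and 42.6 FPKM in WT, 22.8, 32.2 and 32.1 in gCXC, 47.9, 51.7 and 48.8 in gXlnRC, and 295, 337 and 432 in gAraRC. Here gXlnRC also lay above every WT library, by a small step (log2 difference 0.65 ± 0.19) beside the 3.45 ± 0.19 of gAraRC. PDE_02855 read 106, 104 and 73.6 FPKM in WT and 1078, 866 and 817 in gAraRC, a ratio of 9.74. Its means of 82.1 ± 5.403 FPKM in gCXC and 98.5 ± 8.74 in gXlnRC (SD, n = 3) lay within the range of the WT libraries.

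PDE_06770 was the 1 member called lower than WT in both other strains, with 10.3, 10.4 and 8.55 FPKM in WT, 7.77, 6.28 and 5.78 in gCXC, 6.60, 5.90 and 6.51 in gXlnRC, and 77.3, 109 and 107 in gAraRC. No library of gCXC or gXlnRC reached the lowest WT library, whereas every gAraRC library exceeded WT at least 7-fold. PDE_09994 had the opposite profile in gXlnRC. It read 138, 135 and 125 FPKM in WT, 130, 123 and 135 in gCXC, 231, 205 and 239 in gXlnRC, and 1062, 1222 and 1289 in gAraRC. The 4 levels form 3 steps: gCXC and WT overlapped, gXlnRC was 1.70 times WT and gAraRC 8.98 times WT.

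Of the other 5 genes among the 10 with the largest differences, PDE_00144 went from 69.2 ± 13.8 FPKM in WT to 599 ± 130.5 in gAraRC, and PDE_03497 from 2.76 ± 1.12 to 27.8 ± 7.58. PDE_08756 went from 5.97 ± 1.77 to 50.5 ± 11.6, PDE_04486 from 11.4 ± 0.720 to 90.8 ± 17.8, and PDE_08813 from 33.4 ± 1.12 to 251 ± 31.4 (SD, n = 3). These genes span mean levels from 27.8 to 599 FPKM in gAraRC, with ratios between 7.51 and 10.1. PDE_03497 has the longest recovered gene length of all members, 3258 nt, and PDE_00144 one of the shorter ones, 336 nt.

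**Figure D2:**
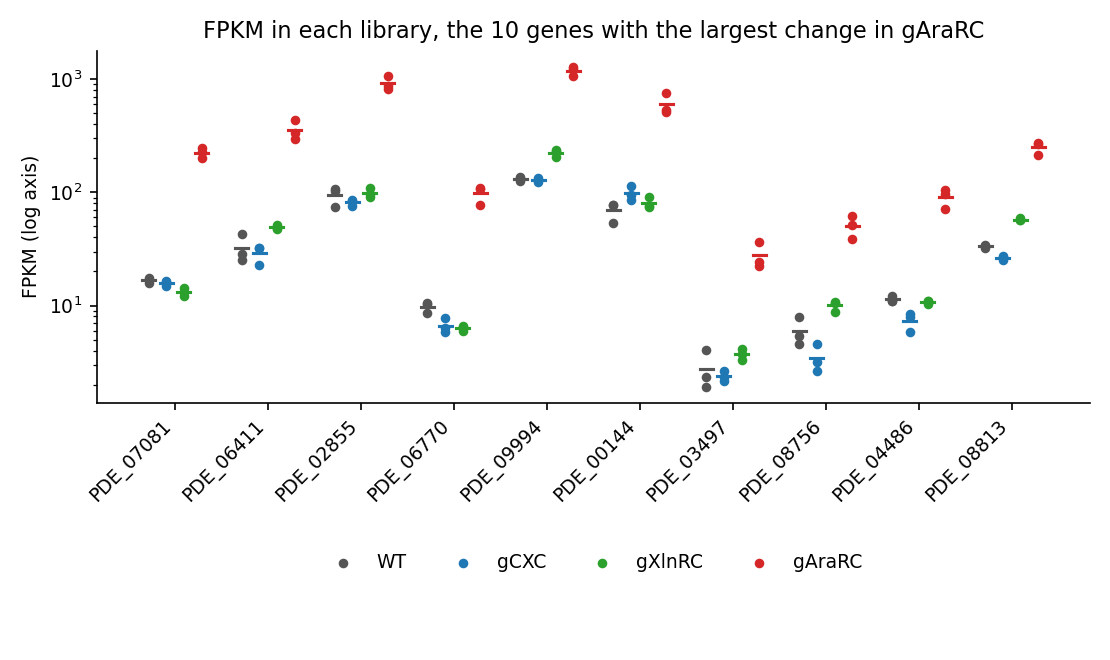
FPKM of each library (points, logarithmic axis) and group mean (bars) for the 10 genes with the largest difference in gAraRC, 3 libraries per strain. The gAraRC libraries of each gene lie above all other libraries of that gene, from 200.1 FPKM upwards for PDE_07081 against at most 17.6 elsewhere.

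By level, the set was led by PDE_02854, at 10451 ± 1877 FPKM in gAraRC (12618, 9343 and 9393 by library). It was already abundant in WT, with 2152, 2086 and 1411 FPKM, and stayed in that range in gCXC (1624, 1779 and 1968) and gXlnRC (2093, 1837 and 1760). Its ratio of gAraRC to WT was 5.55. PDE_08932 went from 506, 549 and 418 FPKM in WT to 4556, 3245 and 2917 in gAraRC, a ratio of 7.28. Its libraries in gCXC (648, 689 and 682) and gXlnRC (927, 788 and 752) also lay above every WT library, by ratios of 1.37 and 1.67. PDE_06899 and PDE_08898 had ratios of gAraRC to WT of 3.52 and 4.55, with gAraRC means of 2917 ± 244 and 2725 ± 219 FPKM (SD, n = 3).

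PDE_06035, the second most abundant member, lay on opposite sides of WT in the other strains. It read 1257, 1325 and 945 FPKM in WT, 697, 653 and 734 in gCXC, 2236, 1879 and 1692 in gXlnRC, and 4884, 4176 and 3653 in gAraRC. The 4 groups did not overlap, and their order was gCXC, WT, gXlnRC and gAraRC. Its log2 differences from WT were -0.74, 0.72 and 1.85 (each ± 0.14, SE), so it met the rule only narrowly in both bounded strains.

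Together the 112 genes held 0.796%, 0.810% and 0.665% of the summed FPKM in the WT libraries and 4.50%, 3.72% and 3.64% in the gAraRC libraries. The means were 0.757% ± 0.0804 in WT, 0.809% ± 0.00408 in gCXC, 1.06% ± 0.0761 in gXlnRC and 3.95% ± 0.478 in gAraRC (SD, n = 3). All gXlnRC libraries lay above all WT and gCXC libraries, while WT and gCXC overlapped. PDE_02854 alone made up 1.03% ± 0.184 in gAraRC. Without it the other 111 genes went from 0.590% ± 0.0436 in WT to 2.92% ± 0.295 in gAraRC. The 5 most abundant members in gAraRC, PDE_02854 among them, held 2.36% ± 0.369 there and 0.442% ± 0.0788 in WT. In gCXC and gXlnRC these 5 held 0.438% ± 0.00309 and 0.642% ± 0.0567. A higher share of the set in gAraRC follows largely from the rule. As a share of recovered reads the set held 0.847% ± 0.0827 in WT and 4.05% ± 0.491 in gAraRC.

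**Figure D3:**
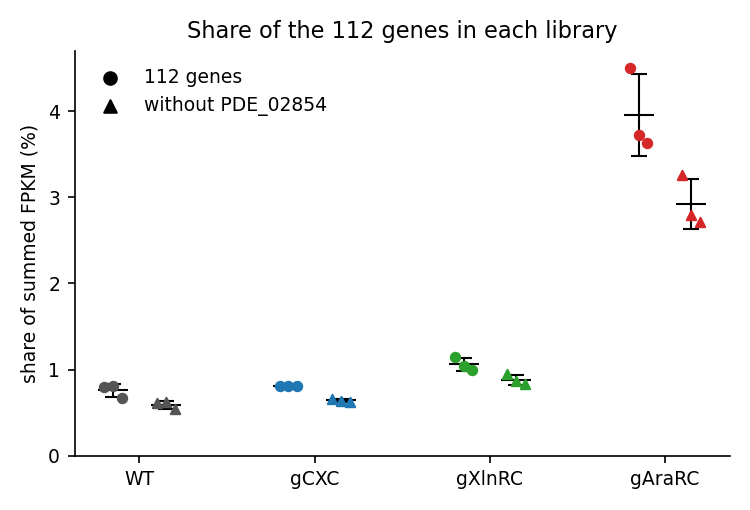
Share of the summed FPKM of each library held by the 112 genes (circles) and by the 111 genes other than PDE_02854 (triangles), with mean and SD over the 3 libraries of each strain. The gAraRC libraries lie between 3.64% and 4.50% for all 112 genes, and no other library exceeds 1.15%.

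The members were spread over all levels of WT expression. In WT, 12 had a mean below 1 FPKM, 49 between 1 and 10, 37 between 10 and 100, and 14 at 100 FPKM or more. Of the tested genes, 2.48%, 24.4%, 54.2% and 19.003% fell in these classes. The median ratio of gAraRC to WT was 8.60 in the lowest class, then 4.70, 4.00 and 3.90. The rule shapes this order, since a fixed difference in log2(FPKM + 1) asks for a larger ratio at low levels: the smallest ratios in the classes were 5.18, 3.25, 2.91 and 2.92. Of the 112 members, 10 passed the FPKM filter only through gAraRC libraries, so they had to be higher there. On the log2(FPKM + 1) scale the lowest class had the smallest median difference, 1.65, because adding 1 shrinks differences between low values. The highest level reached in gAraRC by a member of the lowest class was 7.99 FPKM.

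The 2 lowest members rest on few reads. PDE_06461 had 1, 0 and 0 reads in the WT libraries, 1, 1 and 0 in gCXC, 9, 7 and 7 in gXlnRC, and 33, 36 and 37 in gAraRC. Scaled to the library totals, this is a ratio of gAraRC to WT of 115 with an exact 95% counting interval of 20.3 to 4596. PDE_00022 had 2 reads in each WT library, 2, 2 and 3 in gCXC, 34, 16 and 25 in gXlnRC, and 65, 48 and 62 in gAraRC. Both genes also stood higher in gXlnRC than in WT, with ratios of 21.7 (interval 3.52 to 894) and 11.8 (5.17 to 33.2). They passed the bound of 0.8 because the differences in FPKM were below 1 unit. The intervals cover counting error only. In all, 5 members had at least 2 times the mean FPKM of WT in gXlnRC and 3 in gCXC. The highest WT mean among them was 1.26 FPKM for gXlnRC and 1.61 FPKM for gCXC.

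The bounds of 0.8 still left room for differences in the other strains. In gXlnRC, 38 members were called higher than WT and 7 lower (limma, adjusted p below 0.05), where 19.1% of tested genes were called higher and 35.5% lower. In gCXC, 29 were called higher and 12 lower, where 23.8% and 26.5% were. The rule used both contrasts, so nothing is read from these counts beyond a description of the set: 47 of the 112 members were called in neither strain and 65 in at least 1. The median log2 difference of the members was 0.26 in gXlnRC and 0.10 in gCXC. Among the members, 53 had means above WT in both strains, 18 below in both, 26 were above in gXlnRC and below in gCXC, and 15 were the reverse.

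Calls in both strains together numbered 15 higher in both and 1 lower in both, PDE_06770. A further 4 members were called lower in gCXC and higher in gXlnRC: PDE_06035, PDE_08756, PDE_08813 and PDE_06674. PDE_02372 was the 1 member called higher in gCXC and lower in gXlnRC, with 16.5, 18.6 and 26.6 FPKM in WT, 24.9, 29.8 and 30.8 in gCXC, 14.6, 16.2 and 13.6 in gXlnRC, and 65.0, 82.6 and 59.3 in gAraRC. Its WT and gCXC libraries overlapped through WT replicate 3. PDE_02372 was singled out after its values were seen. For counts that combine the calls of both strains, here and above, no share of all tested genes is given. Such counts describe the set only.

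The direct comparison of gCXC with gXlnRC was not part of the rule, although its libraries were, and the bounds limit its size to less than 1.6. Of the members, 33 were called lower in gCXC than in gXlnRC and 15 higher, and 64 were not called. Of all tested genes, 22.5% were called lower in gCXC and 36.1% higher. The median log2 difference (gCXC minus gXlnRC) was -0.16 for the members and 0.08 for all tested genes. With median-of-ratios scaling the members' counts were 39 lower and 12 higher, and of all tested genes 27.8% were called lower and 28.2% higher, with a median of 0.0019. With quantile normalization the members' counts were 33 and 17, and the shares of all tested genes 23.6% and 31.1%, with a median of 0.05. Whether the members differ from other genes in this respect was not tested.

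The 5 members with the largest difference between these strains were all lower in gCXC. After PDE_06035 (-1.47 ± 0.14, limma adjusted p = 3.23e-06) came PDE_08756, with 2.64, 3.17 and 4.55 FPKM in gCXC against 8.83, 10.7 and 10.6 in gXlnRC (-1.33 ± 0.21, limma adjusted p = 0.000157). PDE_08813 read 25.1, 26.8 and 27.5 FPKM in gCXC and 59.6, 56.5 and 56.6 in gXlnRC (-1.09 ± 0.08, limma adjusted p = 3.22e-07). PDE_06674 read 1.58, 2.52 and 2.90 FPKM in gCXC and 6.52, 5.54 and 5.79 in gXlnRC (-1.08 ± 0.15). PDE_01653 read 21.7, 22.6 and 27.5 FPKM in gCXC and 62.6, 43.6 and 42.2 in gXlnRC (-1.0001 ± 0.15). In each of the 5 the libraries of the strains did not overlap, and the gAraRC libraries lay above both. The 5 were picked for the size of this difference. Its adjusted p-values and the lack of overlap therefore follow largely from that choice, and the place of gAraRC from the rule.

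Against gCXC and against gXlnRC, 112 of 112 members were called higher in gAraRC (limma, adjusted p below 0.05), where 22.0% and 23.5% of tested genes were. The thresholds of the rule fix this direction for all members. The smallest differences were 0.85 against gCXC and 0.78 against gXlnRC, and the medians were 1.83 and 1.81.

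One WT library decided the place of several members. In WT replicate 3, 6 members read at least 2 times the value of both other WT libraries, as did 1.25% of tested genes. They were PDE_00249, PDE_07868, PDE_01143, PDE_03434, PDE_00235 and PDE_06929. PDE_00249 stood at 18.0 and 18.6 FPKM in WT replicates 1 and 2 and at 115 in replicate 3, above the lowest of its gAraRC libraries (108, 151 and 194). Its gCXC libraries (36.4, 51.9 and 59.4) and gXlnRC libraries (38.3, 34.3 and 42.2) lay between the WT values. PDE_07868 had 6.37, 5.17 and 26.6 FPKM in WT and 34.6, 87.4 and 36.6 in gAraRC, the most variable member among the gAraRC libraries (SD 0.74 on the log2 scale).

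Without WT replicate 3 the ratio of gAraRC to WT went from 2.98 to 8.24 for PDE_00249 and from 4.16 to 9.16 for PDE_07868. For PDE_01143 it went from 3.25 to 7.02, for PDE_03434 from 4.57 to 6.78, for PDE_00235 from 4.30 to 20.8 and for PDE_06929 from 5.44 to 14.7. PDE_00235 had only 1 and 2 reads in the other WT libraries. Without this library 4 of the 6 were called higher in gCXC and 3 in gXlnRC (limma, adjusted p below 0.05), and 5 of the 6 no longer met the rule. The 6 were picked for a high value in this library, so leaving it out lowers their WT means by choice. No share of all tested genes called in this refit is given, and nothing is read from these calls. Over the whole set, 17 members left and 10 genes entered when WT replicate 3 was left out. This check was added after the values were seen.

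Values near the thresholds show how sharply the list was drawn. Just inside 1.5 were PDE_00103 (1.51), PDE_06173 (1.504) and PDE_09629 (1.502), and just outside were PDE_04007 (1.49), PDE_06414 (1.49) and PDE_02379 (1.48). PDE_04007 went from 0.115 FPKM in WT to 2.16 in gAraRC, a larger ratio than that of most members but from 4 WT reads in all. At the upper bound in gCXC, PDE_05462 (0.73) was inside and PDE_00370 (0.82) outside, and at the lower bound PDE_06035 (-0.74) was inside and PDE_09763 (-0.81) outside. In gXlnRC, PDE_07380 (0.78) and PDE_09193 (-0.65) were inside, and PDE_04019 (0.80, above the bound before rounding) and PDE_08876 (-0.82) outside. PDE_09193 varied little in gAraRC, at 26.0, 25.01 and 25.05 FPKM against 3.08, 3.01 and 3.58 in WT. Of the 289 genes raised by at least 1.5 in gAraRC, 130 reached 0.8 in gXlnRC and 64 reached it in gCXC. On the lower side, 12 lay at or below -0.8 in gXlnRC and 26 in gCXC, and 55 genes lay outside the bounds in both strains.

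Many members had consecutive tag numbers, a feature that the rule did not use. Tag numbers usually follow the order of genes along the assembly, but positions were not available here. Of the 112 members, 29 (25.9%) had a tag number next to that of another member, in 13 runs. Of all genes in the table, 2.18% had a member as neighbour. Counting neighbours among all 289 genes raised by at least 1.5 in gAraRC, 40 members (35.7%) had such a neighbour, beside 34.6% of the 289 genes themselves. Whether the members are more or less clustered than that larger group was not tested.

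Within these runs, the levels of neighbours differed widely. In 11 of 16 cases the less abundant gene reached under 10% of the FPKM of the most abundant gene of its run in gAraRC, with a median of 2.73%. PDE_00441 stood at 2.51% of the level of PDE_00440 in WT, 2.34% in gCXC, 2.26% in gXlnRC and 2.33% in gAraRC, while PDE_00440 itself went from 67.6 FPKM in WT to 458 in gAraRC. PDE_08899 stood at 0.565%, 0.814%, 0.370% and 0.551% of PDE_08898. The ratio of gAraRC to WT was 6.30 for PDE_00441 and 6.77 for PDE_00440, and 4.44 and 4.55 for PDE_08899 and PDE_08898. PDE_06412 stood at 10.9% of PDE_06411 in WT and 3.84% in gAraRC, and PDE_02855 went from 5.02% to 8.81% of PDE_02854.

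The longest run was PDE_08931 to PDE_08934. PDE_08932, at 3573 ± 867 FPKM in gAraRC, lay between genes at 12.6 ± 3.29 (PDE_08931), 21.1 ± 2.14 (PDE_08933) and 14.8 ± 2.00 FPKM (PDE_08934), each from 2.63 to 4.89 FPKM in WT. In PDE_08934 the WT values came from 14, 11 and 12 reads. Ratios of gAraRC to WT were 3.82, 4.32 and 5.62 for the low genes and 7.28 for PDE_08932. Outside the run, PDE_08930 went from 31.9 to 40.2 FPKM and PDE_08935 from 1.21 to 2.17. These flanking tags were looked up after the run was known.

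The second run held PDE_06899, at 828 ± 147 FPKM in WT and 2917 ± 244 in gAraRC, with PDE_06900 (4.80 to 18.8) and PDE_06901 (2.62 to 11.1 FPKM). Their ratios of gAraRC to WT were 3.52, 3.91 and 4.25. In gXlnRC, PDE_06899 stood at 1260 ± 33.6 FPKM, 1.52 times WT, while PDE_06900 read 3.36, 4.43 and 4.401 FPKM there, just below its WT libraries (4.49, 4.66 and 5.25), and PDE_06901 read 3.91, 5.12 and 1.64, overlapping WT (3.21, 3.81 and 0.841). PDE_06901 rests on 13, 18 and 3 reads in WT. Of the flanking tags, PDE_06898 went from 1.10 FPKM in WT to 2.52 in gAraRC and PDE_06902 from 39.4 to 33.5. The labels name a stranded library kit, but the strand setting used in counting is not given in the sources used here. Whether low neighbours hold reads of the abundant gene beside them was not tested.

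**Figure D4:**
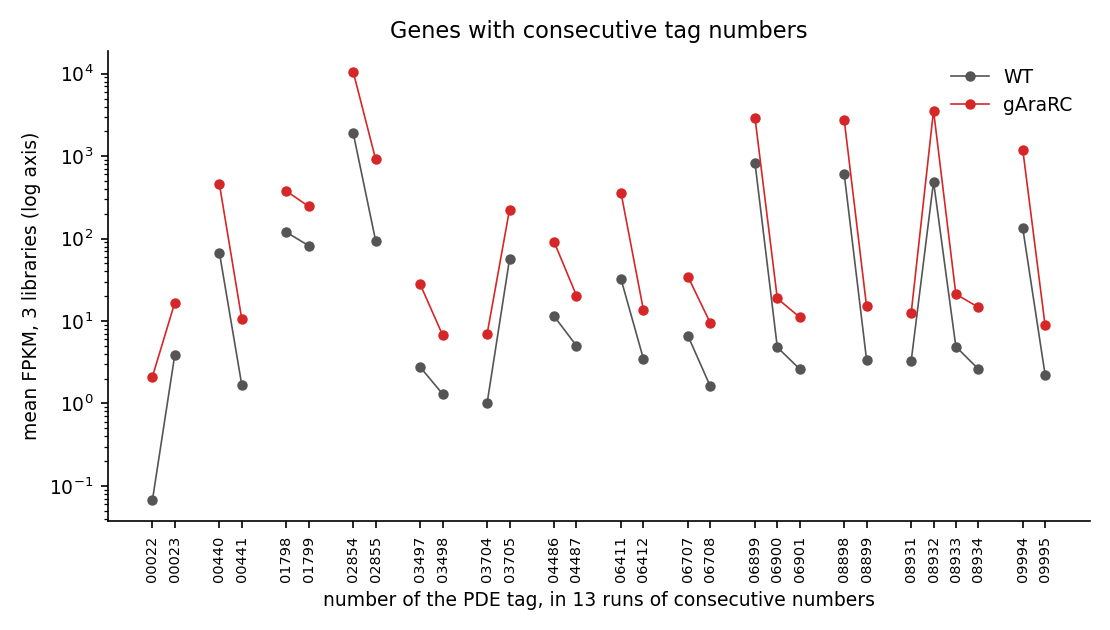
Mean FPKM over 3 libraries (logarithmic axis) in WT and gAraRC of the 29 members with consecutive tag numbers, joined by lines within each of the 13 runs. In most runs 1 abundant gene stands beside far lower ones, as PDE_08932 (3573 FPKM in gAraRC) beside PDE_08931 (12.6), and the gAraRC means lie above the WT means for every gene shown.

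Tags next to a member that were not themselves raised by 1.5 were examined in the same way. Of 156 such tested tags, 64 (41.0%) were called higher in gAraRC than in WT and 61 (39.1%) lower (limma, adjusted p below 0.05), against 19.1% and 57.0% of all tested genes. Their median log2 difference was -0.0035, against -0.34 for all tested genes. In gXlnRC the same tags had 19.9% called higher and in gCXC 20.5%, near the 19.1% and 23.8% of all tested genes. The gAraRC pattern was not particular to the members. Of 244 tested tags next to the other 177 genes raised by at least 1.5, 39.3% were called higher in gAraRC. Their median log2 difference there was 0.03. Of these 244 tags, 28.3% were called higher in gXlnRC and 26.2% in gCXC.

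**Figure D5:**
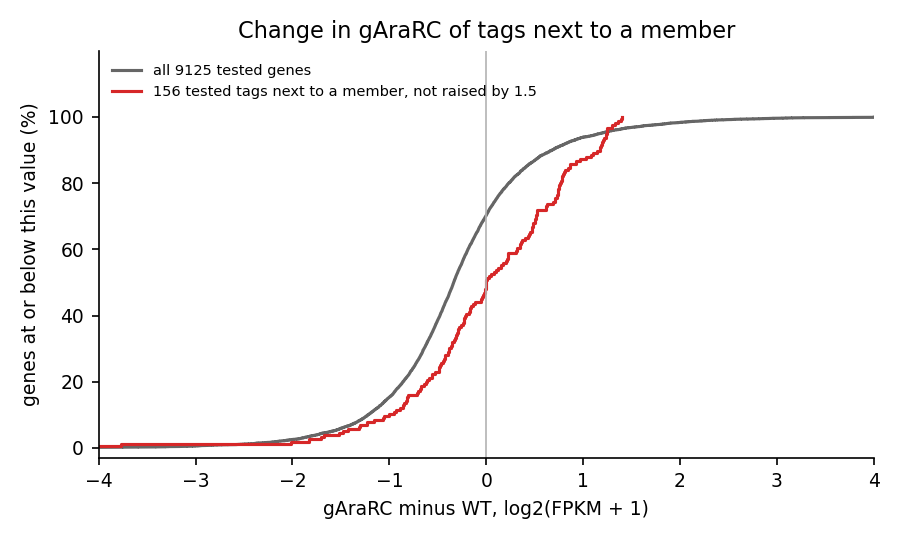
Cumulative percentage of genes (vertical axis) by log2(FPKM + 1) difference of gAraRC from WT (horizontal axis) for all 9125 tested genes and for the 156 tested tags next to a member that were not raised by 1.5. Around the middle the second curve lies to the right, with a median of -0.0035 against -0.34, and it ends below 1.5 by choice.

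The spread between libraries of a group was larger for the members than for tested genes of like mean over all 12 libraries. The rule did not use this spread directly. It used means of 3 libraries, which single libraries can shift, so the spread is not independent of the choice. The median SD of log2(FPKM + 1) was 0.20 in WT, 0.14 in gCXC, 0.13 in gXlnRC and 0.21 in gAraRC. Tested genes of like mean over all 12 libraries (in 10 classes of equal size) had 0.13, 0.10, 0.11 and 0.13. Within a strain the members do not match the level of their class, because gAraRC lies above the other strains by choice. In gAraRC, 87 of the 112 members lay above the median of their class, as did 79 in WT, 76 in gCXC and 76 in gXlnRC. Within gAraRC, 64 members were highest in replicate 1, where the median member stood 0.12 above its group mean and the median tested gene 0.0054.

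Coding lengths recovered from the FPKM steps ran from 153 to 3258 nt among the members, with a median of 849 nt against 1161 nt for tested genes. By length, 46 members were shorter than 678 nt, the first quartile of tested genes, and 17 were longer than the third quartile, 1773 nt. PDE_06708 and PDE_09024 were the shortest, at 153 nt each. PDE_06708 belongs to a run of consecutive tags and PDE_09024 to none. At a given FPKM a short gene rests on fewer reads. Of all members, 12 had at most 10 reads in every WT library.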

How the data were processed

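The authors deposited 1 table of FPKM values with a column per library. Tools listed in the submitters' processing notes, with no role given, were featureCounts 1.5.0-p1, DESeq2, CASAVA 1.8 and HISAT2 2.0.0. No source used here gives the build, annotation, strand setting or FPKM denominator. FPKM values were not rescaled. Genes that reached 1 FPKM in 3 or more libraries were fitted with limma 3.58.1 (R 4.3.3) on log2(FPKM + 1), group means only, all 12 libraries, 8 residual degrees of freedom, trended variance, two-sided tests and Benjamini-Hochberg adjustment over all 9125 genes, called below 0.05. The fit was also run on simulated reads with the same spread setting for every gene, a simpler case than these data. No result here rests on that run. Differences on this scale understate changes of low genes. Read numbers, totals and lengths (in steps of 3 nt) were inferred from FPKM steps. All 9125 tested genes received a length, and summed reads reached at least 99.99% of each total. Python 3.11.15, pandas 2.3.3 and matplotlib 3.10.9 were used.

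The members, and the lists and rules used here, were chosen with earlier results of these data known. Named genes were the 10 members with the largest gAraRC difference, the 5 most abundant, those in the 3 longest runs of tags (2 runs qualified), those nearest each threshold, the 5 with the largest gCXC to gXlnRC difference and the 3 with the largest gAraRC SD. Of the latter, PDE_06929 and PDE_05901 read 2.45, 8.24 and 5.09 and 8.07, 2.89 and 5.05 FPKM in gAraRC. Functional lists planned for annotated tags could not be used. Strains share the same WT libraries. Same-numbered replicates were treated as unpaired. Correlations of their deviations from group means ran from -0.094 to 0.17, and 3 of 18 exceeded 0.1. These 3 were all between libraries of replicate 1, and a component shared by that replicate was not tested. Library totals and read numbers limit precision by counting error only. Alternatives are given in the closing section.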

Additional observations from a re-analysis of the deposited data

How the results depend on the processing

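The number of genes that met the rule depended on scaling, pseudocount and thresholds. It was 204 with median-of-ratios scaling (103 of the 112 among them) and 192 with quantile normalization (99 of the 112), 48 with a threshold of 2 in gAraRC and 58 with bounds of -0.5 and 0.5. A pseudocount of 5 gave 75 genes, with only 55 of the 112 among them, and a pseudocount of 0.1 gave 117 (88 of the 112). In TPM it was 134 (106 of the 112). With each library omitted in turn it ranged from 105 to 115. With the threshold of 2, 6 members were next to another. The median log2 difference of the members (gAraRC, gCXC and gXlnRC against WT, in this order) was 2.01, 0.15 and 0.32 in TPM, 2.22, 0.16 and 0.36 with limma voom on recovered reads (an alternative added after the data were seen), 2.26, 0.14 and 0.35 with a pseudocount of 0.1, 1.48, 0.054 and 0.12 with a pseudocount of 5, and 2.23, 0.23 and 0.36 with quantile normalization. With median-of-ratios scaling it was 2.21 in gAraRC and 0.34 in gXlnRC, where the median of all tested genes in gAraRC was -0.0085. For gAraRC against gCXC and against gXlnRC it was 2.14 and 2.06 with voom, 2.14 and 2.02 with median-of-ratios scaling, 2.12 and 2.04 with a pseudocount of 0.1, 1.34 and 1.27 with a pseudocount of 5, and 1.997 and 1.996 with quantile normalization. Against gXlnRC it was 1.84 in TPM, 1.85 with a filter of 5 FPKM, and 1.78 to 1.81 with 1 library left out. For gCXC against gXlnRC it was -0.19 with voom, -0.21 with median-of-ratios scaling, -0.19 with a pseudocount of 0.1, -0.085 with a pseudocount of 5 and -0.10 with quantile normalization. Members called lower in gCXC than in WT numbered 7 with quantile normalization, beside 12 in the main fit. As shares of recovered reads the members held 0.847% in WT and 0.905% in gCXC. Of 544 counts, medians and shares under alternatives, 44 moved, each given above, and 0 reversed. The cause of these shifts was not tested. Over single libraries left out, members called higher in gCXC than in WT ranged from 20 to 34, and in gXlnRC from 31 to 39. With the replicate number as a block, 16 members were called higher and 33 lower in gCXC than in gXlnRC, beside 15 and 33 in the main fit. For the counts of calls in this section, no share of all tested genes under the same setting is given. They describe the set only. Apart from the 7 called lower in gCXC with quantile normalization, no count of calls changed by more than 1.5 times. Tag numbers give no positions, tags have no names here, and genes of a few reads in WT have wide intervals.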
